A study of Homo sapiens with 8 samples.

Results

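This account concerns the 4 human Argonaute genes (AGO1, AGO2, AGO3 and AGO4) and the 3 TNRC6 genes (TNRC6A, TNRC6B and TNRC6C), 7 of the 60666 gene rows of a pulldown experiment. The rule that selects them lists Ensembl IDs and uses no measured value, although it was written with earlier results of these data known. The IDs were ENSG00000092847 (AGO1), ENSG00000123908 (AGO2), ENSG00000126070 (AGO3), ENSG00000134698 (AGO4), ENSG00000090905 (TNRC6A), ENSG00000100354 (TNRC6B) and ENSG00000078687 (TNRC6C). Biotin-tagged synthetic microRNA duplexes were put for 48 h into 786-0 cells, an established epithelial line from a human clear cell renal carcinoma, and the RNA retrieved with the tag was sequenced. The groups were 2 libraries with miR-2355, 3 with miR-1271 and 3 with a control microRNA, so every library came from cells that carried a biotinylated duplex. Whether libraries with the same duplex stem from separate cultures is not stated in the labels. Total counts lay between 4122875 and 22864693 reads per library, with control replicate 2 the shallowest, and all 7 genes passed the filter on low counts that left 17351 genes for testing. Because the other IDs are not paired with names here, markers of renal epithelium or of any other cell type were not analysed.

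MicroRNAs act as guides held by Argonaute proteins, which expose the seed of the guide for pairing with messenger RNAs. AGO2 is the main Argonaute with slicing activity in human cells, while AGO1, AGO3 and AGO4 mostly silence without cutting. The TNRC6 proteins, also called GW182 proteins, bind Argonaute and bring in poly(A)-binding protein and the CCR4-NOT and PAN2-PAN3 deadenylases, so that the bound messenger RNA is repressed and degraded. The values below count the messenger RNAs of these genes among the retrieved RNA, not the proteins that carried the duplexes.

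The 5p strands of both microRNAs, which the design names as the baits, are shown because their seeds decide which sites they can pair with. The sequences are the mature forms in RefSeq on GRCh38.p14, with the seed (bases 2 to 8) in capitals. The sequence of the control duplex and the exact synthetic strands were not used here. The 2 seeds differ, so the baits belong to different seed families. Messenger RNA sequences of the 7 genes were not analysed, so the number of seed matches in each is not given.
miR-2355-5p: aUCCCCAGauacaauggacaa
miR-1271-5p: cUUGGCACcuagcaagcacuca

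With miR-2355, 3 of the 4 Argonaute genes (AGO1, AGO2 and AGO3) rose against the control duplex and no TNRC6 gene was called in either direction. With miR-1271, 3 of the 4 Argonaute genes (AGO1, AGO2 and AGO4) rose and TNRC6A fell. A gene was called at an adjusted p under 0.05 in edgeR's quasi-likelihood test over all 17351 genes. Among all tested genes, 12.3% were called higher and 17.5% lower with miR-2355, and 17.6% higher and 22.5% lower with miR-1271, so calls were common in both contrasts. Both contrasts used the same 3 control libraries, and their results for a gene are therefore not independent of each other. No RNA from before the pulldown was analysed, so more of a messenger RNA in the cells and better retrieval of it cannot be told apart, nor can fewer expressing cells and less RNA per cell.

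**Figure D1:**
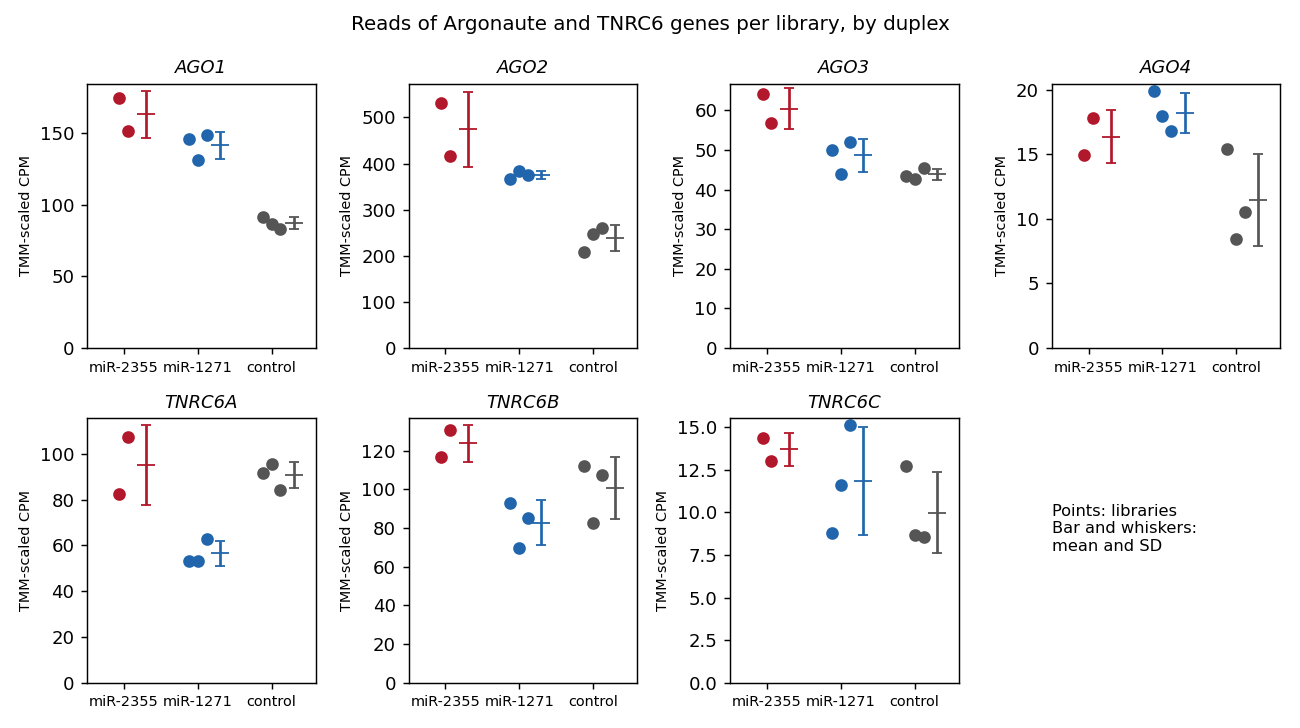
Reads of the 7 genes in each of the 8 libraries, in TMM-scaled CPM (vertical axes from 0), by duplex along the horizontal axes; points are libraries, and bars with whiskers are means with SD (n = 2, 3 and 3). AGO1 and AGO2 sit higher in all 5 microRNA libraries than in all 3 controls, whereas TNRC6A sits lower with miR-1271 alone.

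AGO2 had the largest rise of the 7 genes with miR-2355. Its level, in CPM (reads of the gene relative to all reads of its library, scaled by TMM), was 532 and 416.7 in the miR-2355 libraries, 366, 383 and 374 in the miR-1271 libraries, and 208, 248 and 261 in the control libraries. All 5 microRNA libraries lay above all 3 controls, and the miR-1271 libraries lay close together. The log2 fold change was 0.99 ± 0.15 (SE) with miR-2355 (1.99-fold, edgeR adjusted p = 9.10e-05). With miR-1271 it was 0.65 ± 0.13 (SE; 1.57-fold, edgeR adjusted p = 0.00111). Without control replicate 1 the miR-2355 value of AGO2 was 0.90, below the 0.94 of AGO1. Of all tested genes, 96.7% had a lower log2 fold change than AGO2 with miR-2355 and 87.1% with miR-1271. The gene spans positions 140520156 to 140642313 of chromosome 8 on GRCh38.p14 in the RefSeq annotation.

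AGO1 followed the same course. It stood at 174.5 and 151 CPM with miR-2355, at 145.5, 131 and 148 CPM with miR-1271, and at 91.7, 86.7 and 82.9 CPM with the control. Again no microRNA library overlapped a control. The rise was 0.90 ± 0.125 (SE) on the log2 scale with miR-2355 (1.87-fold, edgeR adjusted p = 4.83e-05) and 0.70 ± 0.11 (SE) with miR-1271 (1.62-fold, edgeR adjusted p = 0.000156). AGO1 and AGO2 were the genes of the 7 that passed in both contrasts with the control, and both passed under all 15 alternative analyses of each contrast. For miR-2355 these include fits with 1 library in that group. How many of all tested genes passed in both contrasts, or had every microRNA library above every control, was not counted.

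AGO3 and AGO4 separated the baits in their calls but not in a test of the difference. AGO3 stood at 64.1 and 56.8 CPM with miR-2355, at 50.1, 44.05 and 52.0 CPM with miR-1271, and at 43.5, 42.7 and 45.4 CPM with the control. Both miR-2355 libraries lay above all controls, while the miR-1271 libraries overlapped them. The log2 fold change was 0.46 ± 0.12 (SE) with miR-2355 (1.38-fold, edgeR adjusted p = 0.0104) and 0.15 ± 0.11 (SE) with miR-1271 (edgeR adjusted p = 0.316). Without miR-2355 replicate 1, which leaves 1 library in that group, the first value was 0.39 and did not pass. Calls over all tested genes also became fewer there.

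AGO4 had few reads, between 37 in control replicate 2 and 362 in control replicate 1. Its level was 14.9 and 17.8 CPM with miR-2355, 19.9, 17.9 and 16.8 CPM with miR-1271, and 15.4, 8.44 and 10.5 CPM with the control. The miR-1271 libraries lay above all controls, and control replicate 1 reached into the miR-2355 range. With miR-1271 the log2 fold change was 0.60 ± 0.18 (SE; 1.52-fold, edgeR adjusted p = 0.0159). This call did not hold without control replicate 3 (0.50, edgeR adjusted p = 0.0850), without miR-1271 replicate 1 (0.55, edgeR adjusted p = 0.0569) or with library totals in place of TMM (0.46, edgeR adjusted p = 0.0561). With miR-2355 the value was 0.45 ± 0.20 (SE; edgeR adjusted p = 0.103), and without control replicate 1 it was 0.73 and passed (edgeR adjusted p = 0.00728). With all libraries thinned to equal depth the miR-2355 value was 0.22 (edgeR adjusted p = 0.538).

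AGO4, AGO1 and AGO3 lie in that order on chromosome 1 of GRCh38.p14, at 35807636 to 35857890, 35869761 to 35930532 and 35930718 to 36072500, with all their promoter windows in RefSeq on the plus strand. Only 185 bases separate the annotated end of AGO1 from the annotated start of AGO3, and 11870 separate AGO4 from AGO1. The rows of AGO1 and AGO3 were counted separately, and reads near the boundary were not examined. Argonaute genes resemble each other in sequence, and how reads that fit several of them were counted is not given in the sources used here.

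TNRC6A, the founding member of the GW182 family, was the only one of the 7 genes called lower in any contrast. It stood at 82.5 and 107 CPM with miR-2355, at 53.3, 53.3 and 62.8 CPM with miR-1271, and at 91.7, 95.6 and 84.3 CPM with the control. Each miR-1271 library lay below every other library, and the miR-2355 libraries lay on either side of the controls. With miR-1271 the level fell by 0.68 on the log2 scale (SE 0.13, 0.626-fold, edgeR adjusted p = 0.000499), and it passed under all 15 alternatives. With miR-2355 the log2 fold change was 0.07, with a 95% interval from -0.22 to 0.36 (edgeR adjusted p = 0.745). A lower log2 fold change than that of TNRC6A was found in 17.6% of all tested genes with miR-1271. The gene spans positions 24610205 to 24826218 of chromosome 16 on GRCh38.p14.

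TNRC6B, the TNRC6 gene with the most reads in 7 of the 8 libraries, passed the test between the baits but neither test against the control. Its level was 117 and 131 CPM with miR-2355, 92.9, 69.9 and 85.4 CPM with miR-1271, and 112, 82.6 and 108 CPM with the control. The miR-2355 libraries lay above all others, and the miR-1271 libraries overlapped the controls. The log2 fold change was 0.29 ± 0.15 (SE) with miR-2355 (edgeR adjusted p = 0.168) and -0.295 ± 0.14 (SE) with miR-1271 (0.815-fold, edgeR adjusted p = 0.0989). Without control replicate 2, the shallowest library, the miR-1271 value was -0.41 and passed (edgeR adjusted p = 0.0197), as it did with library totals in place of TMM (-0.44, edgeR adjusted p = 0.0188). Without miR-1271 replicate 2 it was nearer to 0, at -0.18 (edgeR adjusted p = 0.376). The miR-2355 value was 0.17 without control replicate 2 (edgeR adjusted p = 0.409). TNRC6B spans positions 40044834 to 40335808 of chromosome 22.

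TNRC6C, the third paralog, had between 38 and 299 reads per library and was not called in any contrast. It stood at 14.4 and 13.0 CPM with miR-2355, at 8.79, 11.6 and 15.1 CPM with miR-1271, and at 12.7, 8.67 and 8.53 CPM with the control. The miR-1271 libraries spread from near the lowest value of all libraries to the highest. Its log2 fold change was 0.43 with miR-2355 (95% interval -0.04 to 0.89, edgeR adjusted p = 0.164) and 0.22 with miR-1271 (95% interval -0.22 to 0.66, edgeR adjusted p = 0.413). Without control replicate 1 the miR-2355 value was 0.67 and passed (edgeR adjusted p = 0.0366). The miR-1271 value ran from 0.02 without miR-1271 replicate 3 (edgeR adjusted p = 0.964) to 0.47 without control replicate 1 (edgeR adjusted p = 0.0957). TNRC6C spans positions 77957557 to 78108835 of chromosome 17.

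**Figure D2:**
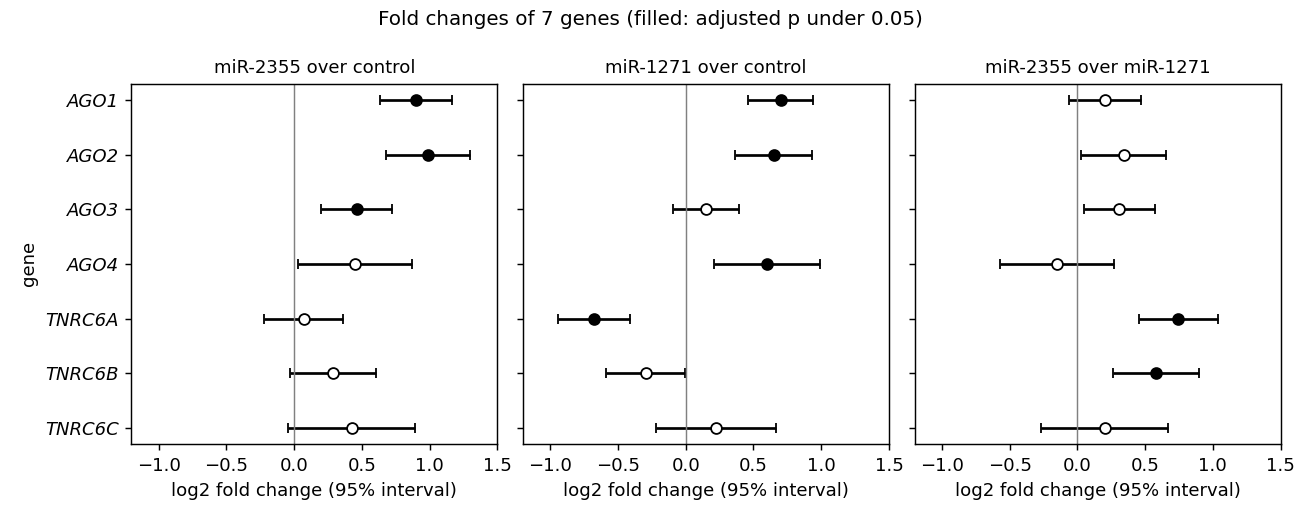
Log2 fold changes of the 7 genes with 95% intervals (horizontal axes) in the 3 contrasts; filled points passed an edgeR adjusted p under 0.05. The points of all 4 Argonaute genes lie right of 0 in both contrasts with the control, while TNRC6A and TNRC6B lie right of 0 for miR-2355 over miR-1271, at 0.75 and 0.58.

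As groups, the 4 Argonaute genes had a median log2 fold change of 0.68 against the control in the miR-2355 contrast and of 0.63 in the miR-1271 contrast. The 3 TNRC6 genes had medians of 0.29 (miR-2355) and -0.295 (miR-1271). Over all tested genes the medians were -0.005 and 0.006 in the same order. Counted without a model, 5 of the 7 genes had both miR-2355 libraries above all controls, where 24.9% of all tested genes did, and 0 had both below, where 27.8% did. With miR-1271, 3 of the 7 had all libraries above all controls, against 23.1% of tested genes, and 1 had all below, against 26.8%. With miR-2355, 0 of the 7 genes were called lower by edgeR, and 0 had an unadjusted p under 0.05 in that direction, where 22.4% of all tested genes did. DESeq2 also called 0 of the 7 lower, where it called 2586 of 37898 genes with a read lower. These 37898 include low-count genes that the edgeR filter removed, so that share cannot be set against the edgeR shares. Of the 3 TNRC6 genes, 0 had an unadjusted edgeR p under 0.05 with miR-2355 in either direction, where 18.0% of all tested genes did on the higher side and 22.4% on the lower.

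**Figure D3:**
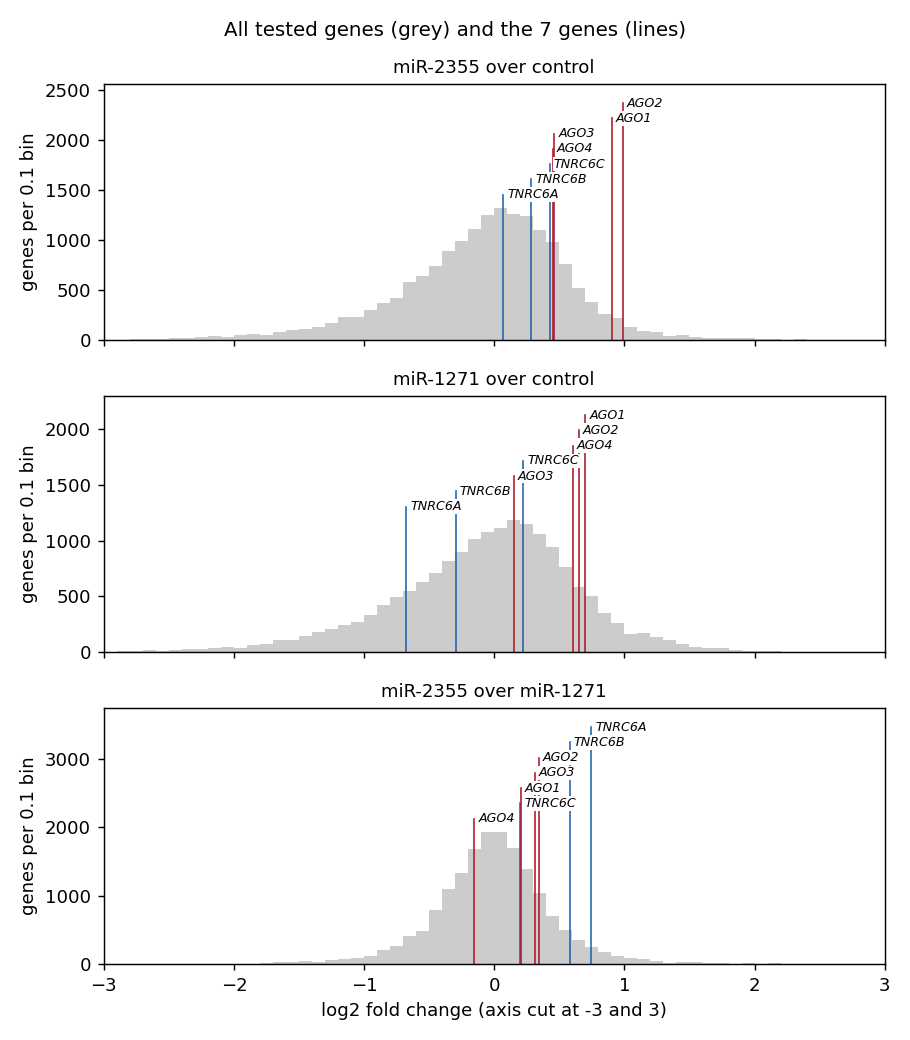
Numbers of tested genes per bin of 0.1 in log2 fold change (grey, vertical axes) in the 3 contrasts, with the 4 Argonaute genes (red lines) and the 3 TNRC6 genes (blue lines) at their own values; the heights of the lines carry no value. AGO1 and AGO2 lie on the right shoulder with both baits, and TNRC6A and TNRC6B do so for miR-2355 over miR-1271.

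The direct comparison of the baits, which does not use the control libraries except through the shared scaling and spread, called 2 of the 3 TNRC6 genes and 0 of the 4 Argonaute genes. TNRC6A was higher with miR-2355 than with miR-1271 by 0.75 ± 0.14 (SE) on the log2 scale (1.68-fold, edgeR adjusted p = 0.00471). TNRC6B was higher by 0.58 ± 0.15 (SE; 49.6% higher, edgeR adjusted p = 0.0321). These were 2 of the 7 genes, where 3.50% of all tested genes were higher and 2.65% lower. At an unadjusted edgeR p under 0.05, 0 of the 7 were lower, where 11.5% of all tested genes were. By the calls of edgeR and of DESeq2, 0 of the 7 were lower. DESeq2 called 684 of 37898 genes with a read higher and 597 lower, a total that includes low-count genes. Each call was lost on leaving out some of the compared libraries. Over all tested genes, 608 of 17351 were called higher with all libraries. Without miR-1271 replicate 2 these were 286 of 17471, and without replicate 3 they were 234 of 17461. TNRC6B did not pass without miR-1271 replicate 2 (0.48, edgeR adjusted p = 0.116) or 3 (0.61, edgeR adjusted p = 0.0847). Leaving out either miR-2355 library leaves 1 in that group, and calls over all tested genes also became fewer there. TNRC6A did not pass without miR-2355 replicate 2 (0.55), nor did TNRC6B without miR-2355 replicate 1 (0.67) or 2 (0.50).

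For the Argonaute genes the direct differences were smaller, and 0 of 4 passed with edgeR or with DESeq2, although 2 (AGO2 and AGO3) were higher at an unadjusted edgeR p under 0.05, as were 11.3% of all tested genes. AGO2 was 1.27-fold with miR-2355 relative to miR-1271 (95% interval 1.02 to 1.57, edgeR adjusted p = 0.177). AGO3 was 1.24-fold (95% interval 1.03 to 1.49, edgeR adjusted p = 0.145), and passed with library totals in place of TMM (log2 difference 0.43, edgeR adjusted p = 0.0479). AGO1 was 1.15-fold (95% interval 0.957 to 1.38, edgeR adjusted p = 0.354). Without miR-2355 replicate 1, which leaves 1 library in that group, the log2 differences were 0.16 for AGO2 and 0.10 for AGO1. With all libraries they were 0.34 and 0.20. The intervals of AGO4, from 0.672-fold to 1.20-fold, and of TNRC6C, from 0.830-fold to 1.59-fold, included both directions. These intervals do not show that the baits retrieved equal amounts. In libraries, 5 of the 7 genes (AGO1, AGO2, AGO3, TNRC6A and TNRC6B) had both miR-2355 values above all miR-1271 values, where 21.1% of tested genes did, and 0 had both below, where 20.5% did.

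Promoter windows of AGO1, TNRC6A and TNRC6B are shown because AGO1 rose with both baits while the TNRC6 pair was higher with miR-2355 than with miR-1271, a choice made after these results were seen. RefSeq windows on GRCh38.p14, each reaching 250 bases before and 50 after an annotated start, were at hand for 6 of the 7 genes (AGO2 had no entry in the table), and TNRC6C had 4 of them. The windows shown lie on the plus strand at chr1:35882959-35883258 (AGO1), chr16:24729401-24729700 (TNRC6A) and chr22:40044584-40044883 (TNRC6B). Those of AGO1 and TNRC6A lie inside the annotated spans of the genes, which begin at 35869761 and 24610205. The TNRC6B window covers the beginning of its span, at 40044834. Capitals mark matches on either strand to CCAAT (the CCAAT box), GGGCGG (the GC box), CCGGAAG (an ETS core), CACGTG (an E-box), CCATCTT (a YY1 core) and TATAAA (the TATA box). None of the marked matches in these 3 windows overlapped another.
AGO1: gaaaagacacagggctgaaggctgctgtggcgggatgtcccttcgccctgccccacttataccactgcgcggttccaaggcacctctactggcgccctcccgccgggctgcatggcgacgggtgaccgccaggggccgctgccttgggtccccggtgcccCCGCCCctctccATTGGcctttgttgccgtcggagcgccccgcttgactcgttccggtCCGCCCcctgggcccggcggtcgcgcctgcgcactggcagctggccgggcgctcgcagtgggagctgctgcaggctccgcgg
TNRC6A: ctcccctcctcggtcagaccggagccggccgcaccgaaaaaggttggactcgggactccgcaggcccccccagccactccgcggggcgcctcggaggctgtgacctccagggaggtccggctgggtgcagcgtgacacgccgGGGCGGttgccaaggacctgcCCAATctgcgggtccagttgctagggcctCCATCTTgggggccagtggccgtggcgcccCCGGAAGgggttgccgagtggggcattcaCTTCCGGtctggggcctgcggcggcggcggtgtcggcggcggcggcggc
TNRC6B: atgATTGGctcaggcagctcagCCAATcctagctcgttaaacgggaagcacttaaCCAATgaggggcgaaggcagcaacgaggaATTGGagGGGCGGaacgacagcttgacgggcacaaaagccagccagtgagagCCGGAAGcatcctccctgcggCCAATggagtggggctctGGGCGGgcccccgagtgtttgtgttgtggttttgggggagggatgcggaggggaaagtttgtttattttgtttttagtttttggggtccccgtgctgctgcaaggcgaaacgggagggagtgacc

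The TNRC6B window held 5 CCAAT matches, a number reached in 0.359% of 35114 RefSeq windows of this length, whereas AGO1 and TNRC6A held 1 each. All 3 windows held a GC box, as did 45% of all windows, and a CCAAT box, as did 34.6%. The ETS core was found in TNRC6A and TNRC6B, against 10.3% of all windows, and the YY1 core in TNRC6A, against 5.84%. Neither was particular to the genes shown, since the AGO3 window also held an ETS core and a TNRC6C window a YY1 core. Neither the E-box (7.26% of all windows) nor the TATA box (11.5%) occurred in them. These matches describe the letters of the windows. Whether any factor binds there, or whether transcription of these genes differed between the groups, was not tested.

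The balance between both families within a library does not depend on how libraries are scaled to each other. In the miR-2355 libraries the 4 Argonaute genes together had 3.67 and 2.56 reads for each read of the 3 TNRC6 genes. In the miR-1271 libraries they had 3.75, 4.28 and 3.62, and in the control libraries 1.66, 2.07 and 1.99. Every microRNA library lay above every control, and miR-2355 replicate 2 lay nearest to them. Group means were 3.12 ± 0.79 with miR-2355 (SD, n = 2), 3.88 ± 0.35 with miR-1271 (SD, n = 3) and 1.90 ± 0.22 with the control (SD, n = 3). No test was made of this sum over the chosen genes. Since reads also depend on transcript length, the ratio is not a ratio of molecules, but a gene's length is the same in all libraries.

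**Figure D4:**
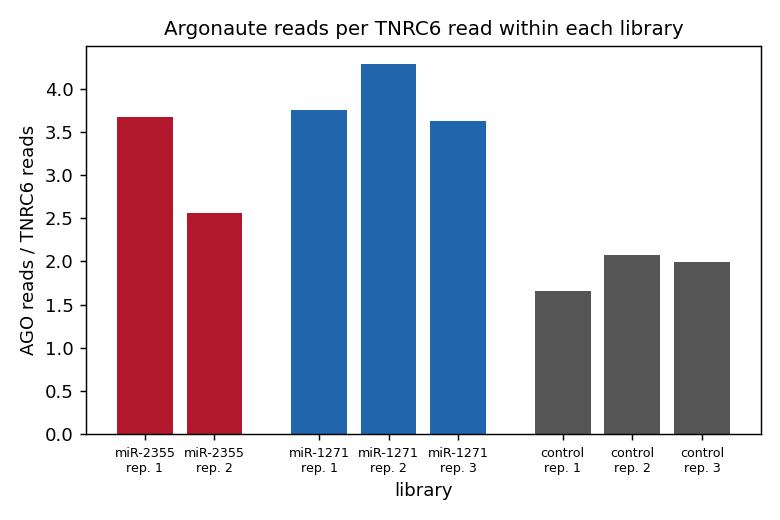
Reads of the 4 Argonaute genes divided by reads of the 3 TNRC6 genes (vertical axis, from 0) in each of the 8 libraries, grouped by duplex along the horizontal axis. The 5 microRNA libraries reach 2.56 to 4.28, above the 3 controls at 1.66 to 2.07.

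Expressed as a share, Argonaute reads made up 78.6% (exact Clopper-Pearson 95% interval 78.0% to 79.2%) and 71.9% (71.2% to 72.7%) of the reads of all 7 genes in the miR-2355 libraries. In the miR-1271 libraries the share was 78.9% (78.0% to 79.9%), 81.0% (80.1% to 81.9%) and 78.4% (77.5% to 79.2%). In the controls it was 62.4% (61.5% to 63.2%), 67.4% (65.5% to 69.2%) and 66.6% (65.8% to 67.4%). The intervals of the microRNA libraries did not meet those of the controls, although they account for the error of counting reads and for no other error, and reads are not separate molecules here. The 2 miR-2355 libraries differed from each other by more than their counting error.

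Within the Argonaute family, AGO3 gave a smaller part of the reads with both baits than with the control, which was not tested. Its part of all Argonaute reads was 8.16% and 8.84% in the miR-2355 libraries, against 8.62%, 7.65% and 8.79% in the miR-1271 libraries and 12.1%, 11.1% and 11.4% in the controls. All microRNA libraries lay below all controls. The log2 fold change of AGO3 itself was 0.46 with miR-2355 and 0.15, not called, with miR-1271. Those of AGO1 and AGO2 were larger with both baits. AGO2 gave the most reads of the family in all libraries, at 64.9% and 67.7% with miR-2355, 62.9% to 66.5% with miR-1271 and 58.0% to 65.3% with the control, ranges that overlapped. Within the TNRC6 family, TNRC6A gave 38.6% and 42.7% of the reads with miR-2355, 34.4% to 39.5% with miR-1271 and 42.1% to 51.2% with the control, so that miR-1271 lay below the control without overlap. All 7 genes together took 0.1004% and 0.0933% of all reads with miR-2355, 0.0655% to 0.0726% with miR-1271 and 0.0592% to 0.0621% with the control.

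**Figure D5:**
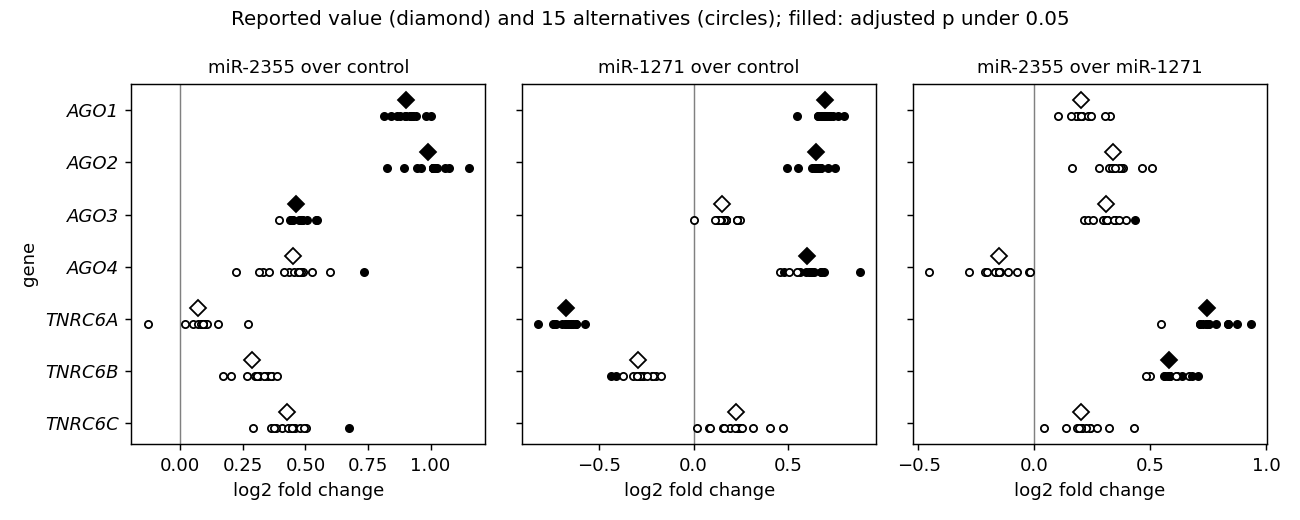
Log2 fold change of each gene (horizontal axes) as reported (diamonds) and under 15 alternative analyses (circles) in the 3 contrasts; filled symbols had an adjusted p under 0.05. AGO1 and AGO2 against the control and TNRC6A for miR-1271 over control stay filled throughout, while both TNRC6 calls between the baits include open circles.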

How the data were processed

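RNA retrieved with biotinylated duplexes was sequenced from 8 libraries, grouped by title. The table deposited by the authors holds raw counts of reads for each Ensembl gene ID. Alignment and counting used BWA and featureCounts on hg38 (GRCh38), per the submitters' processing notes. How reads with several matches were handled, which strand setting was used and which annotation release was counted is not given in the sources used here. Because BWA is not a spliced aligner, reads over exon junctions can be lost in every library alike, and reads of overlapping antisense genes could be counted with a gene.

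Counts were fitted with edgeR 4.0.16 in R 4.3.3: filterByExpr, TMM scaling, 1 mean per group over all 8 libraries, and glmQLFTest for 3 contrasts. P-values were adjusted by Benjamini-Hochberg over all 17351 genes, and calls used an adjusted p under 0.05. Standard errors, which are approximate, come from the log2 fold change and its F statistic. The spread that the p-values rest on may be technical. The procedure was tested on simulated counts, where the share of false calls lay above the level aimed at in each contrast. Within-group pairs of libraries differed beyond sampling noise (chi-square per gene 6.21 to 21.2), so each was kept as a replicate. Alternatives used DESeq2 1.42.0, other scalings, filters and thresholds, equal depth and each library left out. The 15 alternative analyses of a contrast include leaving out libraries of the group not compared. Those libraries enter the contrast only through the shared filter, scaling and spread.

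The 7 genes, and lists of partner genes, were chosen with earlier results of these data known. Membership of the 7 follows gene family, with no threshold on values, and all 7 are named. The pairing of the 7 IDs with symbols was taken from the definition of the gene set. RefSeq tables on GRCh38.p14 gave positions and sequences by symbol, but 0 of the 60666 IDs matched them, so lists of partner genes and cell type markers, and a search for genes with a like pattern, were not run. Exon lengths were not used here, so levels of different genes are not ranked per length.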

Additional observations from a re-analysis of the deposited data

Results flagged for a closer look

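The effects of the baits differed for TNRC6A and TNRC6B, by a test of the difference itself. The log2 difference, miR-2355 minus miR-1271, was 0.75 for TNRC6A, which had 94.9 ± 17.5 CPM with miR-2355 (SD, n = 2) and 56.5 ± 5.5 CPM with miR-1271 (SD, n = 3; edgeR adjusted p = 0.00471). It was 0.58 for TNRC6B, which had 123.8 ± 9.7 CPM with miR-2355 (SD, n = 2) and 82.7 ± 11.7 CPM with miR-1271 (SD, n = 3; edgeR adjusted p = 0.0321). In both genes each miR-2355 library lay above each miR-1271 library. The direction held under all 15 alternatives, which include fits with 1 miR-2355 library. The ranges were 0.55 to 0.93 for TNRC6A and 0.48 to 0.71 for TNRC6B. The call was lost in 1 alternative for TNRC6A and in 4 for TNRC6B. A change in the cells and a change in retrieval cannot be told apart.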

How the results depend on the processing

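Of the 7 genes, the numbers called higher or lower were recomputed under 17 alternatives per contrast. With miR-2355 against control, 3 were higher, and leaving out a control or miR-1271 library gave 3 to 5, the highest without control replicate 1. With miR-1271 against control, 3 were higher, and leaving out 1 library gave 2 to 3. There 1 was lower, with 1 to 2 on leaving out 1 library, 2 with library totals alone and 2 at an adjusted p under 0.1. With miR-2355 against miR-1271, 2 were higher, with 1 to 2 on leaving out a control or miR-1271 library. There were 3 with library totals alone and 1 at an adjusted p under 0.01. Leaving out miR-2355 replicate 1, which leaves 1 library in that group, lost calls in both contrasts of that bait. Leaving out miR-2355 replicate 2 lost calls between the baits. Shares of all tested genes at an adjusted p under 0.1 or 0.01 were not counted. The counts of 0 lower genes stayed at 0 in every alternative. TNRC6A with miR-2355 against control, never called, changed sign without miR-2355 replicate 2 (log2 fold change -0.13, and -0.13 to 0.27 on leaving out 1 library). The cause of these changes was not tested. With library totals alone, the median over all tested genes shifted by -0.145 (log2) with miR-1271 against control and by 0.125 between the baits. In the same setting 1252 of the 17351 genes were called higher between the baits, against 608 with TMM. With miR-1271 against control 1896 were then called higher and 4887 lower, against 3062 and 3910 with TMM. Leaving out control replicate 1 gave 2044 of 16878 genes called higher with miR-2355, against 2127 with all libraries. Leaving out control replicate 2 gave 3735 of 17403 called lower with miR-1271.

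The titles share replicate numbers, but deviations of same-numbered libraries from their group means correlated at only -0.103 to 0.0185 over 7 pairs, so the numbers were not taken as pairs. Deviations of the miR-2355 libraries mirror each other, so these pairs are not independent and the check is a weak one. A replicate block gave 3 higher and 0 lower with miR-2355, 3 higher and 1 lower with miR-1271, and 2 higher and 0 lower between the baits, which changed no call. Over all 17351 tested genes the block gave 1541 higher and 2505 lower with miR-2355, and 2757 and 3650 with miR-1271. Between the baits it gave 320 higher and 217 lower, against 608 and 459 without the block. TNRC6B between the baits had an edgeR adjusted p of 0.0495 with the block. Depth limits AGO4 and TNRC6C most, with 37 and 38 reads in control replicate 2. At equal depth AGO4 had a log2 fold change of 0.22 in place of 0.45 with miR-2355 against control and a difference of -0.45 in place of -0.15 between the baits, without a call in either. Between the baits, leaving out 1 library also moved the uncalled values of AGO4 (-0.28 to -0.02 without miR-2355 replicate 2 or 1) and TNRC6C (0.04 to 0.43 without miR-1271 replicate 1 or 3).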

Other observations

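The spread between libraries of a group differed among the genes. AGO2 with miR-1271 had the smallest coefficient of variation, at 2.35% (n = 3), and AGO4 in the control the largest, at 31.1% (n = 3). TNRC6C varied by 26.8% with miR-1271 and 23.8% with the control, both with n = 3, while AGO3 varied by 3.16% in the control.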
